A study of Homo sapiens with 6 samples.

Results

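The 36 genes described here encode aminoacyl-tRNA synthetases, 20 of them cytosolic and 16 mitochondrial, and were found by gene name among the 20532 genes of the deposited count table. Symbols ending in 2 were taken as mitochondrial and the rest as cytosolic, including GARS1 and KARS1, each of which supplies both compartments from 1 gene. All 36 had enough counts to be tested. Members were picked by gene name and not by a cut on measured values, but with earlier results of these data known. RNA was sequenced from ACHN cells, a human renal carcinoma line that the labels assign to clear cell renal cell carcinoma. Cells carrying a lentiviral short hairpin RNA against DNAJC2 (shDNAJC2, 3 libraries) were set against cells carrying a negative control hairpin (shCtrl, 3 libraries). All 6 libraries therefore came from cells that had been transduced and stably carried a hairpin. The libraries were described as biological replicates of each line, with no statement of separate transductions or of how many hairpins were used, so p-values here speak of the spread among 6 libraries, which may be technical. The series concerns metabolism and ferroptosis after DNAJC2, a ribosome-associated co-chaperone, is lowered.

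Each aminoacyl-tRNA synthetase joins 1 amino acid to the tRNAs that carry its anticodons, and so supplies the ribosome with charged tRNA. Most amino acids have a synthetase for the cytosol and another for mitochondria, both encoded in the nucleus. Several cytosolic enzymes sit in the multisynthetase complex, held together by the scaffold proteins AIMP1, AIMP2 and EEF1E1. Genes of many cytosolic synthetases are known targets of ATF4, a transcription factor that is made when amino acids run short or the endoplasmic reticulum is stressed, and that binds with C/EBP proteins to a composite promoter element. WARS1 is, besides this, a known interferon-induced gene.

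Total counts ranged from 17491462 to 25760291 per library, and 15900 to 16336 genes had at least 1 count. DNAJC2 itself had 51.2, 50.4 and 38.5 CPM (counts scaled to library size, TMM-normalized) in shDNAJC2 1, 2 and 3, against 76.7, 69.8 and 86.5 CPM in shCtrl 1, 2 and 3. The knockdown libraries thus kept 60.1% of the control mean and the groups did not overlap (exact two-sided permutation test over libraries, p = 0.1, the smallest p that 3 against 3 allows). One control library stood apart: for 12 of the 20 cytosolic synthetases shCtrl 3 lay with the knockdown libraries and far from shCtrl 1 and 2, although its DNAJC2 level was the highest of the 6. Calls are therefore given over all 6 libraries and again without shCtrl 3. Many fold changes of single genes are given only without shCtrl 3, where those of the 12 were larger. Leaving it out was decided with results known, and 2 control libraries then stand against 3. Of the markers listed for renal epithelial carcinoma, KRT8 had 30.9 to 41.7 CPM, KRT18 66.5 to 89.8 CPM and VIM 2961 to 4350 CPM. PAX8 was low, at 2.82 to 4.64 CPM. CA9 had 8.56, 8.32 and 7.68 CPM in shDNAJC2 1, 2 and 3, against 0.861, 1.30 and 8.83 CPM in shCtrl 1, 2 and 3. The endothelial and T cell markers CDH5 and CD3E had 0 counts in all 6 libraries, a count that allows up to 0.116 to 0.172 CPM. PTPRC and HBB stayed at or below 0.179 CPM, and VWF at or below 0.718 CPM. The other endothelial marker, PECAM1, had 1.46, 1.85 and 3.86 CPM in shDNAJC2 libraries, against 1.11, 0.687 and 1.67 CPM in shCtrl libraries, and was called higher without shCtrl 3; its part in the results was not tested. The fibroblast markers PDGFRA at 128 to 186 CPM, and LUM and DCN at 14.1 to 27.3 CPM, had no call in either fit.

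Promoter sequence is shown for the synthetases whose 300-base window, 250 bases before to 50 after the gene start in RefSeq on GRCh38.p14, held the core of the C/EBP-ATF response element, TGATGNAA on either strand. Windows were found for 30 of the 36 members. LARS1, YARS1, VARS1, TARS3, AARS2 and VARS2 were not matched. The core was present in 8 of the 30, of which 7 were cytosolic. They are shown because these 7 were among the cytosolic genes that were higher in the knockdown without shCtrl 3. Each stretch below runs 5′ to 3′ on the gene's own strand, with the matched letters in capitals.
AARS1, minus strand, chr16:70289666-70289733: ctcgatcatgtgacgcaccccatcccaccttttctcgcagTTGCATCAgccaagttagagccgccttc
CARS1, minus strand, chr11:3057398-3057465: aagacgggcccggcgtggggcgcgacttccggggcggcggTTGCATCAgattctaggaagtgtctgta
GARS1, plus strand, chr7:30594805-30594872: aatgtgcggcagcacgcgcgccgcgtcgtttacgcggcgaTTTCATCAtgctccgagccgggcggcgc
IARS1, minus strand, chr9:92293683-92293750: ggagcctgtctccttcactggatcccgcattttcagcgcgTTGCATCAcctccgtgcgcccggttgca
MARS1, plus strand, chr12:57488024-57488091: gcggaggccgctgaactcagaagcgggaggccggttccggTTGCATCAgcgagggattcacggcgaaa
NARS1, minus strand, chr18:57621807-57621862: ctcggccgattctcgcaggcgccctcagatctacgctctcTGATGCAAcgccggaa
TARS1, plus strand, chr5:33440927-33440994: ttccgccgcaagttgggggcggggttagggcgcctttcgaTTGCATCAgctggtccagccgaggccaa
YARS2, minus strand, chr12:32756067-32756134: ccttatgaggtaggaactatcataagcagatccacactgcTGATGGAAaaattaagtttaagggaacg

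In 5 of the 7 cytosolic stretches the match read TTGCATCA, in GARS1 it read TTTCATCA, and in NARS1 it lay on the other strand as TGATGCAA. The match was near the gene start in GARS1, IARS1, MARS1, CARS1, NARS1 and TARS1, whereas the AARS1 stretch ran from -227 to -160 and the YARS2 stretch from -237 to -170 relative to it. Of all windows in RefSeq 3.62% of 35116, and of all genes 4.46% of 27305, held the same letters. Some genes have several annotated starts, a match in any window was counted, and positions are relative to the start of the window that held it. CARS1, GARS1 and TARS1 each had another window without TGATGNAA. WARS1 lacked this core and instead held the core of the interferon-stimulated response element, which is GAAA, a pair of any bases and GAAA again. Another window of WARS1 held neither core.
WARS1, minus strand, chr14:100375373-100375442: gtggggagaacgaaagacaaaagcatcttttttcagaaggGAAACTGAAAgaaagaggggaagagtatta
EARS2 was the other member with that core, which 3.57% of windows held. A match describes letters in these windows and is neither a bound site nor a cause, and the windows need not be the starts used in ACHN cells.

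The largest differences among the members lay in the cytosolic enzymes. In 12 of the 20, namely AARS1, CARS1, EPRS1, GARS1, IARS1, LARS1, MARS1, NARS1, SARS1, TARS1, WARS1 and YARS1, every shDNAJC2 library was above both shCtrl 1 and shCtrl 2. In each of the 12 shDNAJC2 3 was the lowest knockdown library, and shCtrl 3 was above it. Yet shDNAJC2 3 had the least DNAJC2 of the 6 libraries, at 38.5 CPM, and shCtrl 3 the most, at 86.5 CPM. Over all 6 libraries none of the 36 members passed edgeR's quasi-likelihood test after Benjamini-Hochberg adjustment over all genes (smallest adjusted p = 0.429), and 0% of the 13988 genes tested passed. DESeq2 and limma-voom also called 0 members, beside 35 of the 13988 genes called by DESeq2 and 0 by limma-voom. Without shCtrl 3 all 12 passed, as higher, with 1.58-fold to 3.87-fold differences (median 2.71-fold), in a fit in which 17.8% of all genes tested were called higher. Only counts of RNA from whole cultures were measured, so fewer cells of a kind and less RNA per cell cannot be told apart.

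**Figure D1:**
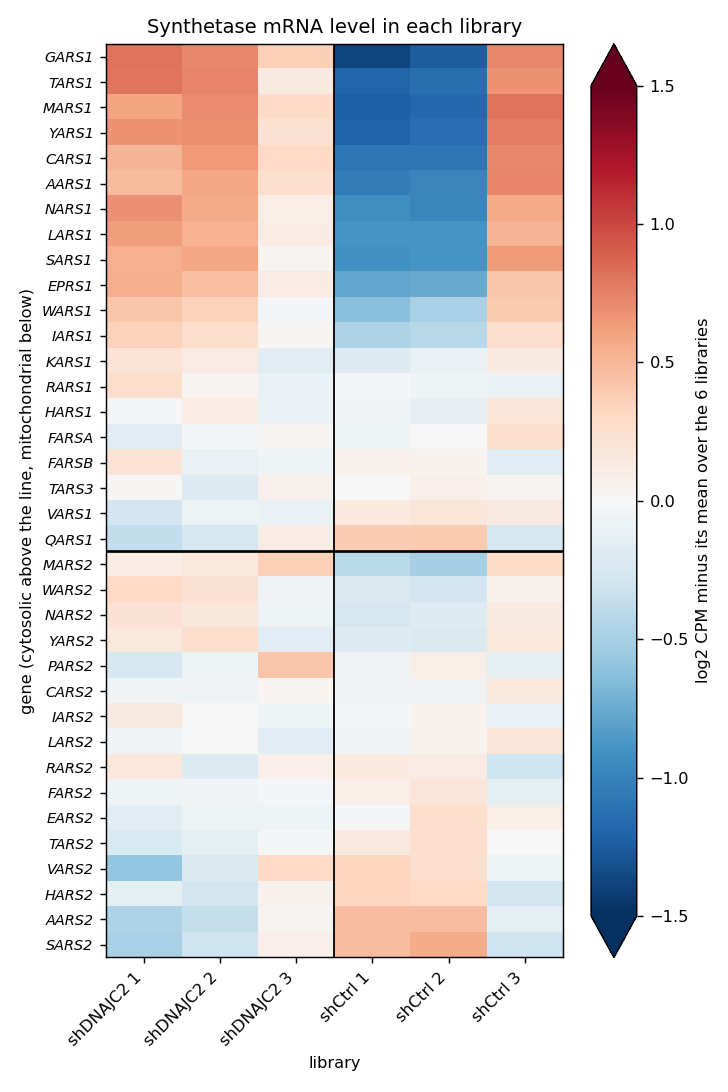
Log2 CPM of the 36 synthetase genes in each library, each gene centred on its mean over the 6 libraries, with shDNAJC2 libraries left of shCtrl libraries and cytosolic genes above mitochondrial genes. In the cytosolic block shCtrl 1 and 2 are low for the 12 genes named above while shCtrl 3 is as high as shDNAJC2 1 and 2, and the mitochondrial block varies less.

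GARS1, glycyl-tRNA synthetase (chromosome 7, 30594681 to 30634033 on GRCh38), differed the most without shCtrl 3. It had 597, 563 and 437 CPM in shDNAJC2 1, 2 and 3, against 131, 145 and 559 CPM in shCtrl 1, 2 and 3. The groups overlapped through shCtrl 3 alone. Its log2 fold change was 0.94 over all 6 libraries (95% confidence interval -0.40 to 2.27, unadjusted p = 0.14 by edgeR). Without shCtrl 3 it was 1.95 (SE 0.16, edgeR adjusted p = 1.3e-04). GARS1 makes both the cytosolic and the mitochondrial enzyme, so its counts belong to both compartments.

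Of the 7 members of the multisynthetase complex 4 were called higher without shCtrl 3. MARS1, methionyl-tRNA synthetase, had 655, 709.7 and 535 CPM in shDNAJC2 1, 2 and 3, against 186, 192 and 765 CPM in shCtrl 1, 2 and 3. In MARS1 shCtrl 3 was the highest of all 6 libraries, as it was in 5 of the 12 genes. LARS1, leucyl-tRNA synthetase and a leucine sensor of the mTORC1 pathway, had 291, 271 and 203 CPM in shDNAJC2 libraries, against 102, 101 and 269 CPM in shCtrl libraries. EPRS1, which carries glutamyl- and prolyl-tRNA synthetase in 1 protein, had 364, 341 and 272 CPM in shDNAJC2 libraries, against 146, 148 and 333 CPM in shCtrl libraries. For both genes shCtrl 3 lay inside the range of the knockdown libraries. Without shCtrl 3 the log2 fold changes were 1.75 (SE 0.14) for MARS1, 1.33 (SE 0.16) for LARS1 and 1.15 (SE 0.14) for EPRS1. IARS1, isoleucyl-tRNA synthetase, was also called higher, by 0.66 (SE 0.13).

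The other 3 members of the complex were not called higher. QARS1, glutaminyl-tRNA synthetase, had 94.7, 102 and 132 CPM in shDNAJC2 libraries, against 159, 161 and 103 CPM in shCtrl libraries. It was called lower without shCtrl 3 (log2 fold change -0.54, SE 0.14, edgeR adjusted p = 0.018), and again shCtrl 3 lay among the knockdown values. KARS1, lysyl-tRNA synthetase of both compartments, had 234, 220.3 and 179 CPM in shDNAJC2 libraries, against 177, 189 and 223 CPM in shCtrl libraries. KARS1 was not called in either fit (log2 fold change 0.21, SE 0.13, without shCtrl 3), nor was RARS1, arginyl-tRNA synthetase. Within the complex 4 of 7 members were thus called higher, 1 lower and 2 not at all without shCtrl 3, with a median log2 fold change of 0.66, against -0.01 over all genes tested. In the same fit 17.8% of all genes were called higher and 17.0% lower, so 1 lower of 7 is near the background. Among the 13 cytosolic members outside the complex 8 were called higher, 1 lower and 4 not at all, with a median of 1.30, beside the same shares of all genes.

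The cytosolic enzymes outside the complex that were called higher without shCtrl 3 also had their lowest values in shCtrl 1 and 2. TARS1, threonyl-tRNA synthetase, had 552, 527 and 346 CPM in shDNAJC2 libraries, against 137, 144 and 502 CPM in shCtrl libraries. YARS1, tyrosyl-tRNA synthetase, had 522, 528 and 378 CPM in shDNAJC2 libraries, against 141, 147 and 556 CPM in shCtrl libraries. Against shCtrl 1 and 2 they were 3.39-fold and 3.31-fold higher, with log2 fold changes of 1.76 (SE 0.20) for TARS1 and 1.73 (SE 0.16) for YARS1. CARS1, cysteinyl-tRNA synthetase, had 229, 250.5 and 198 CPM in shDNAJC2 libraries, against 75.6, 75.9 and 265 CPM in shCtrl libraries. AARS1, alanyl-tRNA synthetase, had 331, 355 and 280.4 CPM in shDNAJC2 libraries, against 116, 119.8 and 394 CPM in shCtrl libraries. In CARS1 and AARS1 the control library shCtrl 3 exceeded every knockdown library. NARS1, asparaginyl-tRNA synthetase, had 469, 429 and 314 CPM in shDNAJC2 libraries, against 154, 148 and 429 CPM in shCtrl libraries. SARS1, seryl-tRNA synthetase, had 394, 407 and 279 CPM in shDNAJC2 libraries, against 145, 147 and 425 CPM in shCtrl libraries. Log2 fold changes without shCtrl 3 were 1.58 (SE 0.12) for CARS1, 1.45 (SE 0.13) for AARS1, 1.42 (SE 0.17) for NARS1 and 1.30 (SE 0.17) for SARS1. For all 12 genes the edgeR adjusted p without shCtrl 3 was between 1.2e-04 and 0.00514, and the unadjusted p over all 6 libraries between 0.102 and 0.238. Over all 6 libraries the log2 fold changes of the 12 were smaller, at 0.38 to 0.94.

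WARS1, tryptophanyl-tRNA synthetase, is listed with interferon-induced genes as well as with ATF4 targets. It had 401, 382 and 297 CPM in shDNAJC2 libraries, against 195, 215 and 394 CPM in shCtrl libraries. Without shCtrl 3 its log2 fold change was 0.82 (SE 0.14, edgeR adjusted p = 0.0038), below that of all but IARS1 among the 12. The interferon indicator MX1 went the other way, with 51.9, 45.8 and 102 CPM in shDNAJC2 libraries, against 400.2, 565 and 33.0 CPM in shCtrl libraries. MX1 and GBP2 were called lower without shCtrl 3, and IRF1 was not called. MX1 was thus highest in shCtrl 1 and 2, the libraries in which WARS1 was lowest.

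There were 6 cytosolic members with no call in either fit: FARSA, FARSB, HARS1, KARS1, RARS1 and TARS3. Their log2 fold changes without shCtrl 3 ran between -0.07 and 0.21. FARSA and FARSB encode the alpha and beta subunits of cytosolic phenylalanyl-tRNA synthetase. The count of FARSA per count of FARSB was 1.11, 1.54 and 1.53 in shDNAJC2 1, 2 and 3, against 1.30, 1.38 and 1.92 in shCtrl 1, 2 and 3. The ratio overlapped between groups, with its highest value in shCtrl 3 and its lowest in shDNAJC2 1. TARS3, a threonyl-tRNA synthetase related to TARS1, had 9.50, 8.20 and 9.87 CPM in shDNAJC2 libraries, against 9.47, 9.89 and 9.67 CPM in shCtrl libraries. TARS3 thus stayed within a narrow range, whereas TARS1 had a wider range over the libraries than any member but GARS1 and MARS1. Of the 6 cytosolic members with a promoter window that were not called higher, FARSA, FARSB, HARS1, KARS1, QARS1 and RARS1, none held TGATGNAA. Of the 10 with a window that were called higher 7 did, beside 4.46% of all genes. At that share 0 of 6 does not set these 6 apart from other genes. The groups rest on calls in a fit chosen with results known, and LARS1, YARS1, VARS1 and TARS3 had no window. EPRS1, SARS1 and WARS1 were called higher and held none.

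VARS1, valyl-tRNA synthetase (chromosome 6, 31777518 to 31795953 on GRCh38), was the cytosolic member whose groups did not overlap. It had 111, 128 and 126 CPM in shDNAJC2 libraries, against 149, 153 and 149 CPM in shCtrl libraries. Here shCtrl 3 was level with shCtrl 1. The log2 fold change of VARS1 was -0.31 over all 6 libraries (95% confidence interval -0.54 to -0.07, edgeR unadjusted p = 0.0178, adjusted p = 0.429) and -0.31 without shCtrl 3 (adjusted p = 0.040). VARS1 transcripts are rich in G and C (62.6%), and with each library's GC trend removed the value was -0.07 over all 6 libraries and -0.10 without shCtrl 3, with no call (edgeR adjusted p = 0.306).

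**Figure D2:**
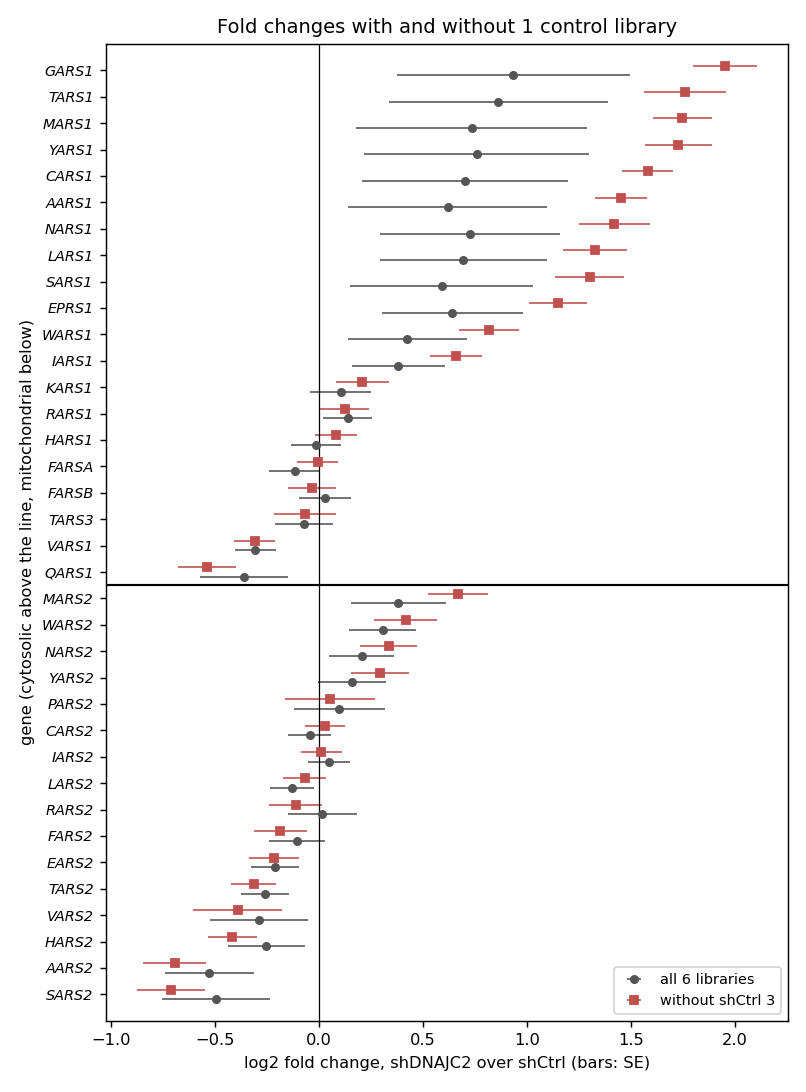
Log2 fold change of shDNAJC2 over shCtrl for each of the 36 genes, with bars for 1 SE, over all 6 libraries (circles) and without shCtrl 3 (squares), cytosolic genes above mitochondrial genes. The 12 cytosolic genes called higher lie at or above 0.66 without shCtrl 3, with SE of 0.12 to 0.20, whereas the mitochondrial genes lie between -0.71 and 0.67.

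The mitochondrial synthetases called without shCtrl 3 went in both directions. Of 16, 3 were called lower, 1 higher and 12 not at all, beside 17.0% of all genes lower and 17.8% higher, so the count of lower members is near the background. AARS2, mitochondrial alanyl-tRNA synthetase, had 23.6, 25.2 and 33.4 CPM in shDNAJC2 libraries, against 44.8, 44.6 and 29.4 CPM in shCtrl libraries. SARS2, mitochondrial seryl-tRNA synthetase, had 16, 18.4 and 23.8 CPM in shDNAJC2 libraries, against 30.9, 33.0 and 18.2 CPM in shCtrl libraries. HARS2, mitochondrial histidyl-tRNA synthetase, had 35.4, 32.4 and 40.9 CPM in shDNAJC2 libraries, against 49.0, 48.2 and 32.4 CPM in shCtrl libraries. In all 3 genes shCtrl 1 and 2 were above every other library, where the 12 cytosolic genes had their lowest values. Log2 fold changes without shCtrl 3 were -0.71 (SE 0.16, edgeR adjusted p = 0.011) for SARS2, -0.70 (SE 0.15, adjusted p = 0.0088) for AARS2 and -0.42 (SE 0.12, adjusted p = 0.027) for HARS2. Over all 6 libraries AARS2 had -0.53 (edgeR unadjusted p = 0.0429). With VARS1 it was 1 of 2 members with an unadjusted p under 0.05, both lower, against 7.33% of all genes lower and 4.0% higher at that level. With each library's GC trend removed, values without shCtrl 3 were -0.52 for SARS2, -0.53 for AARS2 and -0.42 for HARS2, all still called lower. Over all 6 libraries the GC-corrected values were -0.30 for SARS2, -0.35 for AARS2 and -0.25 for HARS2.

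MARS2, mitochondrial methionyl-tRNA synthetase, was the 1 mitochondrial member called higher without shCtrl 3. It had 14.1, 14.6 and 16.6 CPM in shDNAJC2 libraries, against 9.88, 9.20 and 15.7 CPM in shCtrl libraries. Its log2 fold change without shCtrl 3 was 0.67 (SE 0.14, edgeR adjusted p = 0.0086), and shDNAJC2 3 was here the highest library. WARS2, mitochondrial tryptophanyl-tRNA synthetase, had 16.7, 15.7 and 13.0 CPM in shDNAJC2 libraries, against 11.6, 11.1 and 14.0 CPM in shCtrl libraries, and was not called. VARS2, mitochondrial valyl-tRNA synthetase, had 19.8, 25.4 and 36.4 CPM in shDNAJC2 libraries, against 36.9, 34.9 and 28.0 CPM in shCtrl libraries, and was not called. The wide spread of VARS2 lay within the knockdown group, and its exons share 1858 bases with GTF2H4 on the same strand. Neither gene had groups that stood apart. PARS2, mitochondrial prolyl-tRNA synthetase and the least abundant member per transcript length, had 4.80, 5.38 and 7.52 CPM in shDNAJC2 libraries, against 5.45, 6.03 and 5.10 CPM in shCtrl libraries.

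EARS2 and TARS2 had groups that did not overlap, both lower. EARS2, mitochondrial glutamyl-tRNA synthetase, which also charges the glutamine tRNA before amidation, had 24.8, 26.3 and 26.2 CPM in shDNAJC2 libraries, against 27.2, 32.9 and 29.5 CPM in shCtrl libraries. TARS2, mitochondrial threonyl-tRNA synthetase, had 31.4, 33.1 and 36.3 CPM in shDNAJC2 libraries, against 40.6, 43.3 and 36.7 CPM in shCtrl libraries. Neither was called in either fit, with log2 fold changes over all 6 libraries of -0.21 (SE 0.11) for EARS2 and -0.26 (SE 0.11) for TARS2. With VARS1 they were the 3 of 36 members lower without overlap, beside 8.43% of all genes tested, and 0 members were higher without overlap, beside 7.33%. SARS2 shares 1492 exon bases on its own strand with another gene model of the table, so its counts are uncertain. CARS2, FARS2, IARS2, LARS2, NARS2, RARS2 and YARS2 were not called either.

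Without shCtrl 3, 13 of the 36 members were called higher, beside 17.8% of the 14201 genes tested, and 5 were called lower, beside 17.0%. With shCtrl 1 or shCtrl 2 left out as well, 1 control library was left and was assumed to vary like the knockdown libraries. Calls from those fits are therefore not counted here. By compartment 12 of 20 cytosolic members (60%) and 1 of 16 mitochondrial members (6.25%) were called higher. The median log2 fold change over all 6 libraries was 0.51 for the cytosolic members, of which 15 were positive, and -0.08 for the mitochondrial members, of which 7 were positive, against -0.02 over all genes tested. Without shCtrl 3 the medians were 0.98, -0.09 and -0.01.

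Library by library, the mean log2 level of the cytosolic members, each centred on its own mean over the 6 libraries, was 0.34, 0.32 and 0.08 in shDNAJC2 1, 2 and 3, against -0.57, -0.54 and 0.37 in shCtrl 1, 2 and 3. The same mean over the mitochondrial members was -0.09, -0.06 and 0.04 in shDNAJC2 libraries, against 0.05, 0.08 and -0.03 in shCtrl libraries. The mitochondrial mean varied less, and it was highest in shCtrl 2 and shCtrl 1, where the cytosolic mean was lowest. The cytosolic minus the mitochondrial mean averaged 0.28 ± 0.21 in shDNAJC2 libraries and -0.28 ± 0.59 in shCtrl libraries (SD, n = 3 each). The difference of 0.56 between groups was smaller than the SD of the control libraries, and it was 0.90 against shCtrl 1 and 2 alone. As shares of all counts the cytosolic members took 0.596, 0.585 and 0.495% in shDNAJC2 libraries, against 0.293, 0.295 and 0.584% in shCtrl libraries. The mitochondrial members took 0.0501, 0.0490 and 0.0556% in shDNAJC2 libraries, against 0.0609, 0.0612 and 0.0487% in shCtrl libraries.

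**Figure D3:**
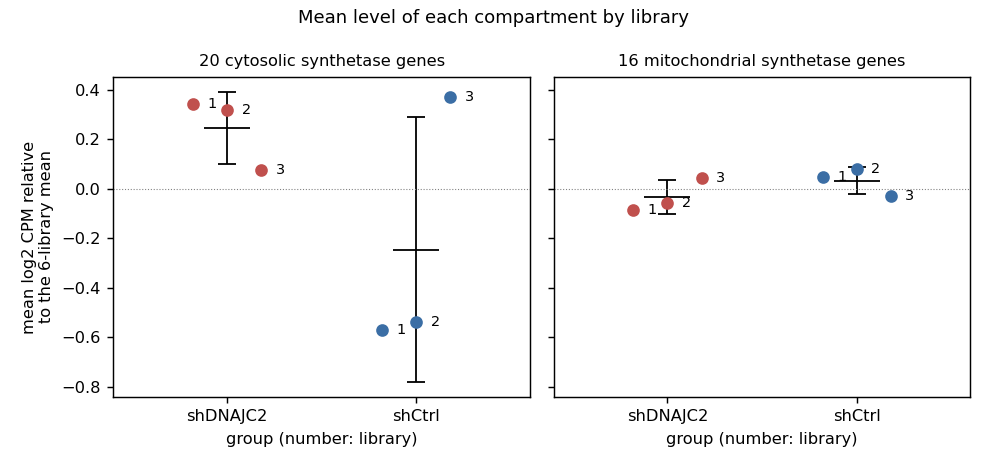
Mean log2 CPM of the 20 cytosolic and the 16 mitochondrial members in each library, centred per gene, with shDNAJC2 left of shCtrl, a numeral for each library and the group mean with SD (n = 3). shCtrl 3 lies at 0.37 in the cytosolic mean, above shDNAJC2 1 at 0.34, while shCtrl 1 and 2 lie at -0.57 and -0.54.

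Amino acids served by separate genes in the 2 compartments allowed each cytosolic gene to be set against its mitochondrial partner within a library. Of 15 such pairs 14 had a higher mean log2 ratio of cytosolic to mitochondrial counts in shDNAJC2 than in shCtrl libraries, the exception being FARSA/FARS2 at -0.01. Without shCtrl 3 all 15 differences were positive. In every pair the 2 groups overlapped and shCtrl 3 was above both other controls. All 15 pairs were read from the same 6 libraries and shared the position of shCtrl 3, and the pairs with FARS2 use it with each of 2 subunits. The 15 are therefore not independent, and no test was made over them.

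The alanine pair AARS1/AARS2 differed the most. Its log2 ratio was 3.81, 3.81 and 3.07 in shDNAJC2 1, 2 and 3, against 1.38, 1.43 and 3.74 in shCtrl 1, 2 and 3. The serine pair SARS1/SARS2 had 4.62, 4.47 and 3.55 in shDNAJC2 libraries, against 2.23, 2.16 and 4.54 in shCtrl libraries. In these pairs the cytosolic gene was higher and the mitochondrial gene lower, so both contributed. The valine pair VARS1/VARS2 had 2.49, 2.33 and 1.79 in shDNAJC2 libraries, against 2.02, 2.13 and 2.41 in shCtrl libraries. The histidine pair HARS1/HARS2 had 2.04, 2.31 and 1.76 in shDNAJC2 libraries, against 1.56, 1.5 and 2.38 in shCtrl libraries. HARS1 and HARS2 lie head to head on chromosome 5, and their promoter windows share 184 bases, from 140691321 to 140691504, yet HARS2 was called lower without shCtrl 3 and HARS1 was not. Their exons overlap by 437 bases on opposite strands, so with the strand setting of the counting not given their reads cannot be fully told apart.

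**Figure D4:**
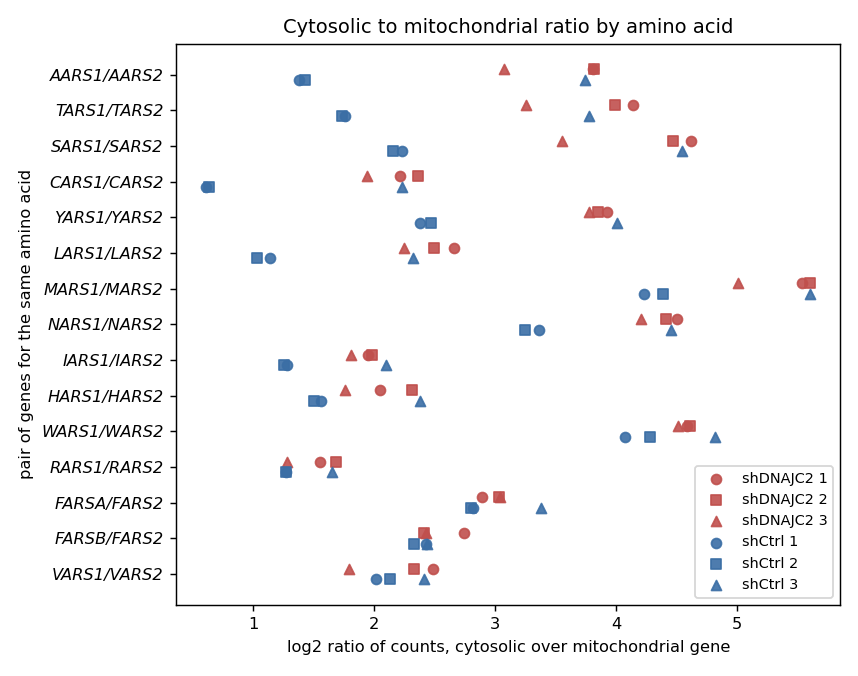
Log2 ratio of cytosolic to mitochondrial counts for each of the 15 pairs in each library, shDNAJC2 drawn above shCtrl. In every pair shCtrl 3 lies to the right of shCtrl 1 and 2, by up to 2.35 log2 units in SARS1/SARS2.

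Per transcript length, as RPKM (counts scaled to library size and to the longest annotated transcript, mean of 6 libraries), cytosolic members ran from 2.61 in TARS3 to 159 in SARS1 with a median of 64.9. Mitochondrial members ran from 2.44 in PARS2 to 33.2 in IARS2 with a median of 9.39. The range of log2 CPM over the 6 libraries was 0.81 to 2.19 for the 12 genes called higher, 0.27 to 0.76 for the other 8 cytosolic members and 0.21 to 1.04 for the mitochondrial members.

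Partners of the synthetases were described from lists chosen by role. The scaffold genes AIMP1, AIMP2 and EEF1E1 were all called higher without shCtrl 3, by 0.54, 0.54 and 0.39 on the log2 scale. In that fit 17.8% of all genes tested were called higher. EEF1E1 had 63.6, 55.2 and 53.1 CPM in shDNAJC2 libraries, against 44.6, 43.3 and 49.6 CPM in shCtrl libraries. Its groups did not overlap, beside 7.33% of all genes tested that were higher without overlap. Among 8 genes of cytosolic tRNA handling and proofreading 4 were called higher and 0 lower without shCtrl 3, beside the 17.8% higher and 17.0% lower of all genes. The largest was XPOT, the exporter of tRNA from the nucleus, with 491, 428 and 343 CPM in shDNAJC2 libraries, against 142, 150.2 and 396 CPM in shCtrl libraries. Its log2 fold change of 1.53 (SE 0.16) lay within the range of the 12 synthetases, and its lowest values were in shCtrl 1 and 2. The other 3 were YRDC, which acts in tRNA threonylcarbamoylation, DTD2, a proofreading deacylase, and PSTK, a kinase of the selenocysteine pathway.

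The mitochondrial partners were called at shares to be read against the 17.8% higher and 17.0% lower of all genes. Of 4 genes of mitochondrial amidation and formylation only QRSL1, a subunit of the amidotransferase that makes glutaminyl-tRNA from EARS2's product, was called higher, by 0.44. Of 9 genes of mitochondrial tRNA processing and modification PUS1 and TRIT1 were called higher and ELAC2 lower, by 0.71, 0.42 and -0.34. Of 8 mitochondrial translation factors MTIF2 was called higher, by 0.34. All these calls were made without shCtrl 3, and their counts of 1 of 4, 2 and 1 of 9, and 1 of 8 are near those shares. Over all 6 libraries no partner passed.

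The stress-response indicators ATF4, DDIT3, TRIB3, ASNS, CHAC1 and SESN2 moved with the 12 synthetases. ATF4 had 952, 1032 and 712 CPM in shDNAJC2 libraries, against 259, 275 and 1082 CPM in shCtrl libraries. ASNS, asparagine synthetase and a well known ATF4 target, had 645, 608 and 396 CPM in shDNAJC2 libraries, against 29.1, 30.5 and 581 CPM in shCtrl libraries. All 6 indicators were called higher without shCtrl 3, beside 17.8% of all genes tested. None was called over all 6 libraries, beside 0% of all genes tested, and shCtrl 3 lay near the knockdown libraries in each. Whether these genes had a part in the synthetase levels was not tested. DDIT3 lies opposite MARS1, and their exons overlap by 355 bases. The counts of DDIT3 were 6.25, 6.26 and 4.07% of those of MARS1 in shDNAJC2 libraries, against 5.98, 5.37 and 5.51% in shCtrl libraries. With the strand setting of the counting not given, DDIT3 counts may include reads of MARS1, which was not tested. In all, 11 members have exons that overlap another gene of the table, and 11 have a pseudogene named after them, among them GARS1, AARS1, CARS1 and WARS1, so their counts are uncertain to that extent.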

How the data were processed

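RNA enriched for mRNA was sequenced as 6 paired-end libraries, per the labels' protocols. The authors deposited raw counts per gene, and the genome build was GRCh38, per the submitters' processing notes. No source used here names the aligner, the counter, its annotation or its use of strand. Totals were 17491462 to 25760291 counts, and a count of 0 allows up to 3 counts, for counting error only. From the counts as deposited, groups were compared over all genes with edgeR 4.0.16 in R 4.3.3 (TMM, filterByExpr, quasi-likelihood F test, two-sided, Benjamini-Hochberg adjustment, threshold 0.05), with group as the only term. Log2 CPM used a prior count of 2, and intervals are at 95%. DESeq2 1.42.0, limma-voom 3.58.1 and other settings were alternatives. The scripts were tested on simulated data. Gene positions, lengths and GC content came from GENCODE 29, and promoters from RefSeq on GRCh38.p14.

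The members, partner lists and tests were chosen with earlier results of these data known, so the lists carry no test of their own. Values in every library are given for the 10 cytosolic and 7 mitochondrial members with the widest range of log2 CPM, for members whose groups did not overlap, and for GARS1, KARS1, WARS1 and TARS3. Deviations of same-numbered libraries from their group means correlated at -0.38, -0.52 and -0.66. The highest correlations with a library of another number were 0.37, 0.59 and 0.67. With each group of 3 centred on its own mean, these correlations are not independent and cannot decide whether libraries were paired. Some items of the lists are not reported here.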

Additional observations from a re-analysis of the deposited data

How the results depend on the processing

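The call on the synthetases rested on 1 library. Over all 6 libraries 0 members were called, and leaving out each library in turn gave 0 to 18, with 18 only without shCtrl 3. Without shCtrl 3, leaving out 1 more library gave 11 to 25 calls in place of 18. The cytosolic median log2 fold change of 0.51 ran from 0.30 to 0.98 when single libraries were left out, highest without shCtrl 3. With a replicate block 0 members were called, and the cytosolic median was 0.62. Other size factors, low-count filters, DESeq2 and limma-voom also called 0 members over all 6 libraries. Without shCtrl 3 all 18 calls were shared with DESeq2, with RLE size factors and with no filter, and 17 with the GC trend removed, where VARS1 lost its call. Members with values near 0 changed sign, for causes not tested. With the GC trend removed, FARSA was at 0.083, FARSB at -0.070, CARS2 at 0.055, IARS2 at -0.024 and RARS2 at -0.075, and RARS2 was at -0.012 with upper-quartile factors. With single libraries left out, FARSB ran from -0.076 to 0.089, HARS1 from -0.073 to 0.081, TARS3 from -0.11 to 0.0039, CARS2 from -0.072 to 0.028, IARS2 from -0.0084 to 0.11, PARS2 from -0.10 to 0.23 and RARS2 from -0.11 to 0.12. DNAJC2 was called by DESeq2 (adjusted p = 0.036) and by edgeR without shCtrl 3 (adjusted p = 0.0080), and had an edgeR adjusted p of 0.429 over all 6 libraries.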
